A study of Mus musculus with 12 samples.

Results

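Lysosome genes were followed across the cell types of the mouse lymph node during a skin inflammation. They were 39 genes chosen by name, of 32285 gene identifiers listed. Of these, 2 are transcription factors that switch on lysosome genes, 8 are membrane proteins, 10 proteases, 7 glycosidases, 7 genes of lipid handling and 5 subunits of the proton pump. All 39 are listed once in every library. The data were 12 single-cell RNA libraries, 1 for each combination of sorted fraction, treatment and genotype label. All mice were C57BL/6 of 7 to 10 weeks with floxed Atg12 (ATG12 fl/fl), an autophagy gene, and all were given tamoxifen 5 times. The libraries labelled Cre-positive carried CDH5 CreER, a tamoxifen-inducible recombinase driven by an endothelial promoter, and those labelled Cre-negative did not. Oxazolone, a contact sensitiser that inflames skin, was painted on the shaved abdomen (50 ul at 4% in acetone and olive oil), and nodes were collected 3 days (day 3) or 7 days (day 7) afterwards; vehicle mice had the solvent alone. Nodes were digested with enzymes, cells held by CD45 beads formed the CD45 fraction (for leukocytes), and the unbound cells formed the CD31 fraction (enriched for endothelium), both before flow sorting. The labels do not say how many animals a library pools, and the study's comparisons are of inflamed with resting nodes and of nodes with and without the endothelial deletion.

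The lysosome is the acid compartment in which cells break down what they engulf and what autophagy delivers. A proton pump, the V-ATPase, acidifies it, cathepsins and other proteases cut proteins there, glycosidases trim sugar chains, and saposins and lipases take lipids apart. Tfeb and Tfe3 bind a short palindrome, the CLEAR element, in the promoters of many of these genes. In lymph nodes the compartment is known for degradation by sinus macrophages and for antigen processing in dendritic cells and B cells, where Ctss and Lgmn cut the invariant chain and antigens for MHC class II.

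The palindrome at the core of the CLEAR element is shown here in the promoters that hold it, since it is the sequence the 2 regulators read. RefSeq promoter windows of build GRCm38.p6, from 250 bases before to 50 after an annotated start, matched 33 of the 39 by symbol. Asah1, Atp6v1b2, Atp6v1h, Ctsb, Ctsh and Npc1 did not match. The 27025 genes had 32851 windows, so a gene can have more than 1, and a match in any of them counted. A start can lie inside the gene, as for Ctsa. The palindrome TCACGTGA, which reads the same on both strands, was in the windows of 6 of those 33 genes and of 1.12% of 27025 genes. Its inner CACGTG, contained in it, was in 11 of 33 and in 8.09% of genes; besides those printed, the holders were Ctsl, Gaa, Glb1, Lamp1 and Lgmn. Each stretch below runs 5′ to 3′ on the gene's strand, with the palindrome in capitals, and Ctsa and Gla hold it 2 times. A match is a description of letters, and no binding was measured.
Atp6v0d1, chr8:105566040-105566089, - strand: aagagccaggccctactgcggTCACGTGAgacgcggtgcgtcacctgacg
Atp6v1a, chr16:44139363-44139412, - strand: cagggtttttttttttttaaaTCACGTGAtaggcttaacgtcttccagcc
Ctsa, chr2:164833739-164833788, + strand: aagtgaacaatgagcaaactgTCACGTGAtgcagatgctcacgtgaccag
Ctsa, chr2:164833756-164833805, + strand: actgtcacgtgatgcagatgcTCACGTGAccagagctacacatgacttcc
Ctsd, chr7:142387898-142387947, - strand: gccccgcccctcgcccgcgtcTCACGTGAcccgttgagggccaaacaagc
Gla, chrX:134601172-134601221, - strand: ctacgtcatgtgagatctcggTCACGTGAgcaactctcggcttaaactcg
Gla, chrX:134601205-134601254, - strand: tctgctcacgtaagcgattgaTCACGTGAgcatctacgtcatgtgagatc
Mcoln1, chr8:3500452-3500501, + strand: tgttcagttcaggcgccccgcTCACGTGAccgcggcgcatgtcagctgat

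Levels are given as UMIs (tags that mark single captured molecules) summed over the cells of a class in a library, per 1000000 UMIs of that sum (CPM). Each list of 6 values gives vehicle, then day 3, then day 7, each as a Cre-negative library followed by its Cre-positive one. Such lists come from the CD45 libraries for dendritic-like (cDC1, cDC2 and migratory together), B cell-like and T cell-like cells and from the CD31 libraries for endothelial-like cells. Those of macrophage-like cells sum both fractions unless 1 is named. Their CD31 and CD45 cells numbered, in list order, 47 and 21, 21 and 13, 25 and 29, 35 and 11, 14 and 10, and 24 and 25. Where values are said to lie above or below others, this holds for the libraries listed. It need not hold in the other fraction, or in each fraction of a sum. The libraries held 36724887 to 76187731 UMIs in all and 5698 to 10553 cells after filtering, and no 2 libraries shared more than 28 cell barcodes. Classes were built by clustering without any lysosome gene and named “-like” from marker lists; 1.42% to 28.3% of cells stayed in no class, most in the CD31 day 3 Cre-positive library. The CD45 libraries were not leukocytes alone: each held 478 to 1713 fibroblast-like cells, and an unnamed cluster led by Cxcl13 and Mfge8 held 2224 cells over the 6. Macrophage-like cells were scarce, 10 to 47 a library, and RNA free in solution was estimated at 0% to 7.28% of a class's UMIs. Atg12 in blood endothelial-like cells was counted at 52.3 and 74.3, 46.8 and 61.5, and 51.6 and 65.5 CPM, higher in the Cre-positive library of each pair. Such 3′ counts need not show a deletion upstream, so the label is not checked by them. Xist, made from the inactive X chromosome, was near 0 in both vehicle Cre-positive libraries (264 and 0, 508 and 347, and 347 and 319.7 CPM in B cell-like cells of the CD45 fraction). Of the Y chromosome, 4 genes summed to 205 and 386, 97.8 and 196, and 171 and 93.6 CPM in the same cells. Xist and these genes were both counted in every library but the vehicle Cre-positive ones, in proportions that differed within each pair. The part of this in the differences below, among them those of the X-linked Gla, Lamp2 and Tfe3, was not tested. Of the markers, C1qa, a complement gene of macrophages, had a median of 3204 CPM in macrophage-like and 1.38 CPM in B cell-like cells of the CD31 libraries, and Prox1, a lymphatic regulator, 800.2 CPM in lymphatic endothelial-like and 2.61 CPM in HEV-like cells. Summed marker lists did not separate every class. The lymphatic list was higher in HEV-like cells (4671 to 8763 CPM) than in lymphatic endothelial-like cells (2197 to 2838 CPM), and the pan-dendritic list, which holds MHC class II genes, spanned 15822 to 20333 CPM in B cell-like and 16291 to 23423 CPM in dendritic-like cells of the CD45 libraries. The 10 leading genes of 3 clusters held more markers of another list than of their own. A mature migratory cluster of 145 cells was led by Sgcz and Cadm2, with the plasma cell gene Jchain and the immunoglobulin genes Ighg1, Iglv1 and Igkc among the 10 and none of its own list. It formed 11.4% and 14.2%, 4.65% and 5.08%, and 22.5% and 11.2% of migratory cells in the CD45 libraries, least at day 3. The lymphatic cluster led by Madcam1 held the neutrophil gene Mmp9 and the blood endothelial cluster led by Atf3 the HEV gene Enpp2. Without these 3 clusters edgeR called 0 of the 39 genes in each comparison of dendritic-like, blood and lymphatic endothelial-like cells, as with them.

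Macrophage-like cells stood out in level. Of the 39 genes, 28 had their highest median there in the CD31 libraries, against 9.69% of genes at 5 CPM or more, and 27 in the CD45 libraries, against 10.7%. Among libraries with at least 10 cells of a class, 17 of them were higher in every macrophage-like value than in any other class in the CD31 libraries (1.97% of genes), and 10 in the CD45 libraries (1.51%). With sparser libraries counted too, 14 and 10 were: Asah1 and Scarb2 then overlapped with monocyte-like cells and Man2b1 with cDC1-like cells. The rest peaked elsewhere. Plasmacytoid dendritic-like cells, the interferon-making lineage, had the highest medians of Ctsh, Ctsl, Npc1 and Atp6v1h (8.76% of genes in the CD31 libraries). Cells like cDC1, the cross-presenting dendritic cells, had those of Gusb and Ppt1 (3.34%), both above every other class in every library (0.46%). B cell-like cells had those of Tfeb and Gla (6.65%), and monocyte-like cells those of Ctss and, in the CD31 libraries, Npc2 (4.23%). Laptm4a was highest in lymphatic endothelial-like cells of the CD31 libraries (16.6%) and, with Gaa, in fibroblast-like cells of the CD45 libraries (22.7%), and Npc2 in mature migratory dendritic-like cells there (8.03%). Cycling endothelial-like cells were left out of this ranking. Classes are clusters of the same cells, so no class was tested against another.

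**Figure D1:**
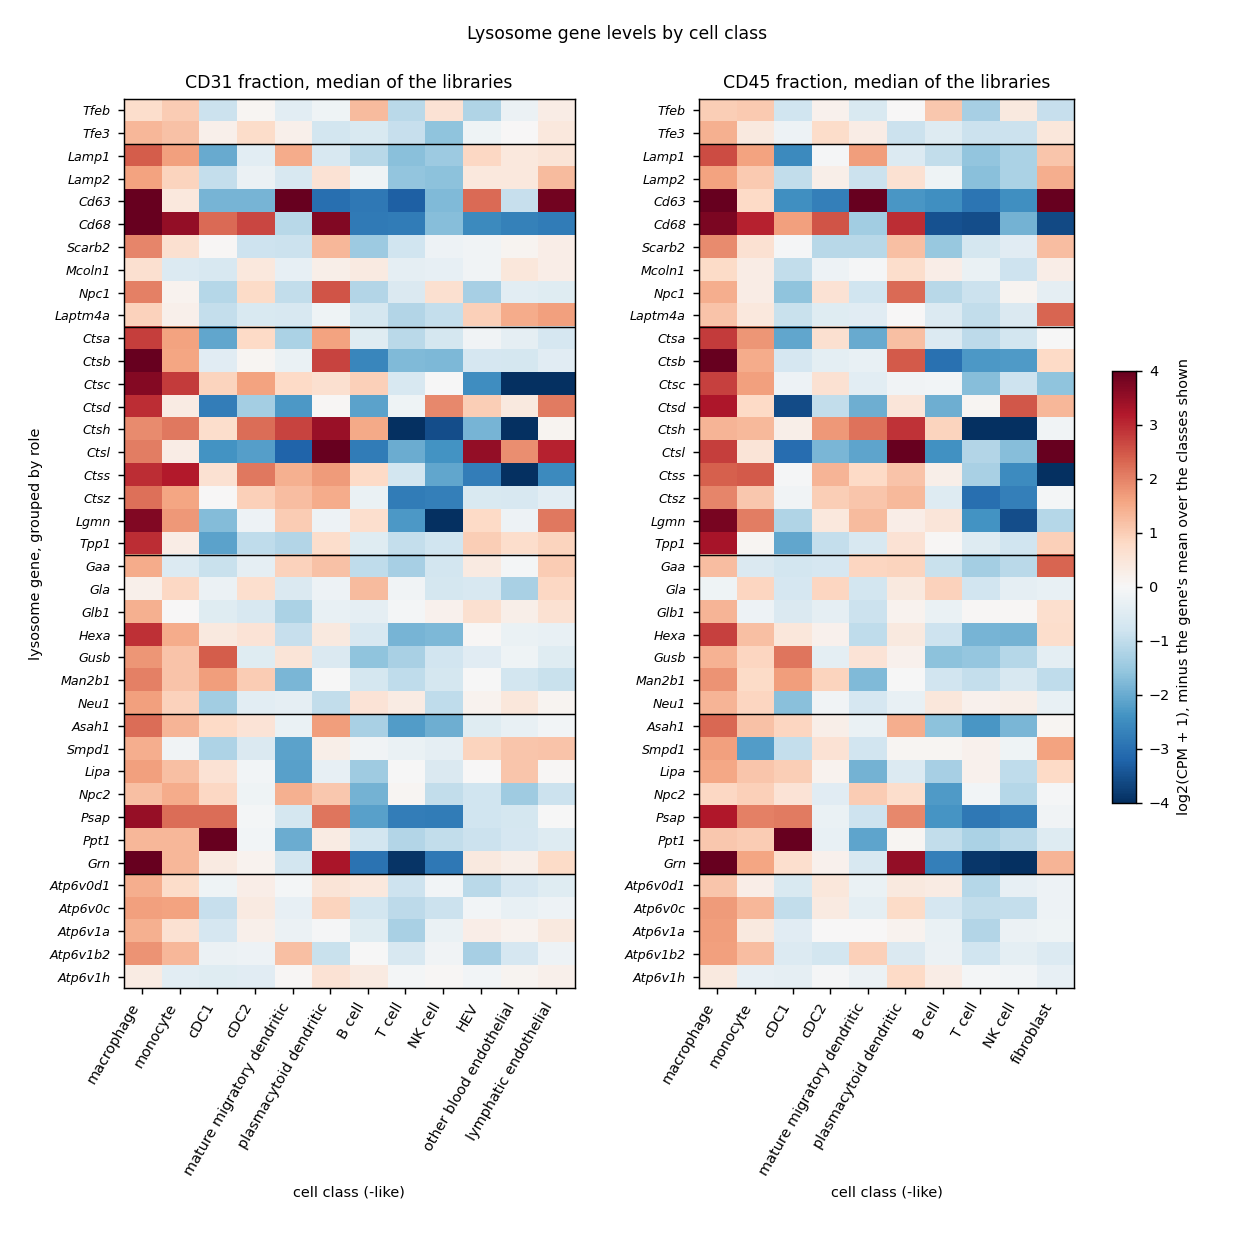
Heat map of the 39 lysosome genes (rows, grouped by role) over the cell classes (columns) in the CD31 and the CD45 fraction. Colour is the median of log2(CPM + 1) over the libraries minus the gene's mean over the classes shown, and saturates at -4 and 4; most rows are reddest in the macrophage column, and Ppt1 and Gusb in the cDC1 column.

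Here a value with a range is the median of the CD31 libraries with at least 10 cells of the class, with the lowest and the highest in brackets. NK cell-like, plasma cell-like and cycling endothelial-like cells are left out of these spans. By median the 2 regulators peaked in different classes. Tfeb was highest in B cell-like cells at 54.9 (48.8 to 69.4) CPM, with macrophage-like cells at 37.3 (33.1 to 60.8) CPM, and lowest in HEV-like cells at 9.23 (5 to 11.9) CPM and T cell-like cells at 10.2 (9.14 to 12.3) CPM. HEV is short for high endothelial venule, through whose wall lymphocytes enter the node. Tfe3 was highest in macrophage-like cells at 54.2 (26.7 to 85.8) CPM, with T cell-like cells at 10.6 (9.74 to 12.3) CPM. The ranges of B cell-like and macrophage-like cells overlapped for Tfeb, and those of monocyte-like and macrophage-like cells for Tfe3. Monocyte-like cells came next for Tfeb, at 45.9 (34 to 56.1) CPM. In the CD45 libraries Tfeb was nearly level, at 57.5 (51.4 to 70.6) CPM in B cell-like and 56.2 (43.3 to 89.2) CPM in monocyte-like cells. Germinal centre B cell-like cells reached 103.6 CPM there. In dendritic-like cells Tfeb was at 17.2 and 19.3, 22.1 and 14.7, and 14.6 and 32.5 CPM, and in macrophage-like cells at 41.5 and 65.3, 38.7 and 37, and 42.6 and 53.9 CPM. Tfeb in B cell-like cells was at 51.4 and 64.1, 61.6 and 52.6, and 53.5 and 70.6 CPM and in T cell-like cells at 10.6 and 11, 9.4 and 9.83, and 6.97 and 10.4 CPM. In the endothelium, Tfeb was at 16.9 and 18, 18.2 and 14.6, and 15.2 and 15.9 CPM in blood and 22.3 and 30.8, 33.9 and 26.1, and 24.7 and 29.2 CPM in lymphatic endothelial-like cells. For Tfeb, both day 3 values lay below both vehicle values in T cell-like and macrophage-like cells and both day 7 values lay below both vehicle values in T cell-like and blood endothelial-like cells. The CD31 fraction went the other way at day 3 for Tfeb in T cell-like cells. Its values there were 10.2 and 10.1 CPM at vehicle and 10.8 and 12.3 CPM at day 3. At day 7 they were lower than at vehicle, at 9.93 and 9.14 CPM, as in the CD45 fraction. Tfe3 shares its target motif with Tfeb. In dendritic-like cells Tfe3 was at 17.2 and 22.9, 17.8 and 25.1, and 22 and 24.7 CPM, and in macrophage-like cells at 56.7 and 73.7, 41.6 and 48.6, and 32 and 65 CPM. Tfe3 in B cell-like cells was at 11.2 and 14.2, 9.75 and 10.2, and 13.8 and 13 CPM and in T cell-like cells at 8.73 and 9.37, 9.12 and 10.5, and 9.27 and 10.4 CPM. In the endothelium, Tfe3 was at 19.7 and 25.2, 18.9 and 16.5, and 20.9 and 21.4 CPM in blood and 24.6 and 32.2, 20.2 and 22.9, and 32.1 and 31.6 CPM in lymphatic endothelial-like cells. For Tfe3, both day 3 values lay below both vehicle values in B cell-like, blood endothelial-like, lymphatic endothelial-like and macrophage-like cells and all 3 Cre-positive values lay above all 3 Cre-negative values in dendritic-like and T cell-like cells. The CD31 fraction had Tfe3 in T cell-like cells at 12.3 and 9.74, 11.1 and 10.2, and 10.1 and 10.9 CPM. There the Cre-positive value was lower at vehicle and day 3 and higher at day 7. Dendritic-like cells of that fraction had more Tfe3 in the Cre-positive library of each pair, but the groups overlapped.

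Membrane proteins divided the myeloid classes. Lamp1, a glycoprotein that lines the lysosome, ran from 1183 (1087 to 1368) CPM in macrophage-like and 614 (565 to 746) CPM in mature migratory dendritic-like cells to 53 (18 to 81.2) CPM in cDC1-like cells. Lamp2, a related protein whose A form serves chaperone-mediated autophagy, had 374 (337 to 425) CPM in macrophage-like, 294 (264 to 333) CPM in lymphatic endothelial-like and 40.5 (38.8 to 49.2) CPM in T cell-like cells. Cd63, a tetraspanin of late endosomes, reached 981 (847 to 1234) CPM in macrophage-like and 836 (663 to 916) CPM in migratory dendritic-like cells, ranges that overlapped, but 9.98 (2 to 14.5) CPM in cDC1-like and 3.21 (2.67 to 3.98) CPM in T cell-like cells. In the endothelium it was at 584 (505 to 697) CPM in lymphatic, 193 (114 to 268) CPM in HEV-like and 19.96 (18.2 to 30.1) CPM in other blood endothelial-like cells, ranges that did not overlap. Cd68, a mucin-like protein used as a macrophage stain, had 383 (306 to 465) CPM in macrophage-like and 250.1 (189.5 to 296) CPM in plasmacytoid dendritic-like cells, and 7.97 (4.04 to 12.5) CPM in migratory dendritic-like cells. Scarb2, a membrane receptor of the lysosome, ran from 252 (207 to 283) CPM in macrophage-like to 22.8 (20.7 to 31.9) CPM in B cell-like cells. Npc1, which exports cholesterol, ran from 146 (104 to 225) CPM in plasmacytoid dendritic-like to 9.19 (6.76 to 10.2) CPM in HEV-like cells. Laptm4a had 465 (413 to 494) CPM in lymphatic endothelial-like and 66.5 (61.7 to 72.6) CPM in T cell-like cells, and 669.9 (611 to 733) CPM in fibroblast-like cells of the CD45 libraries. Mcoln1, the calcium channel TRPML1, had 13.6 (9.32 to 24.7) CPM in macrophage-like and 6.33 (5.12 to 7.33) CPM in T cell-like cells.

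Lamp1 and Lamp2 are given by library next. In dendritic-like cells Lamp1 was at 362 and 309, 420.0 and 417, and 375 and 360.1 CPM, and in macrophage-like cells at 1322 and 1240.1, 1102 and 1174, and 1304 and 1187 CPM. Lamp1 in B cell-like cells was at 101 and 97.4, 113 and 93.5, and 102 and 91.2 CPM and in T cell-like cells at 66.4 and 57.4, 70.8 and 55.8, and 64.1 and 65.7 CPM. In the endothelium, Lamp1 was at 305 and 287, 348 and 345, and 316 and 313 CPM in blood and 308 and 309.7, 325 and 371, and 313 and 305 CPM in lymphatic endothelial-like cells. For Lamp1, both day 3 values lay above both vehicle values in dendritic-like, blood endothelial-like and lymphatic endothelial-like cells and both day 3 values lay below both vehicle values in macrophage-like cells. In the CD31 libraries alone the macrophage-like values overlapped, at 1368 and 1087 CPM at vehicle and 1108 and 1243 CPM at day 3. Also for Lamp1, both day 7 values lay above both vehicle values in blood endothelial-like cells and all 3 Cre-positive values lay below all 3 Cre-negative values in B cell-like cells. Lamp2 is X-linked. In dendritic-like cells Lamp2 was at 60.9 and 93.3, 76.2 and 93.7, and 74.8 and 82.8 CPM, and in macrophage-like cells at 375 and 413, 293 and 377, and 384 and 362 CPM. Lamp2 in B cell-like cells was at 109.9 and 113, 113 and 118, and 99.9 and 99.6 CPM and in T cell-like cells at 42.7 and 36.9, 39.9 and 44.5, and 31.6 and 38.9 CPM. In the endothelium, Lamp2 was at 169 and 159, 168 and 169, and 166 and 155 CPM in blood and 269 and 333, 264 and 332, and 304 and 283 CPM in lymphatic endothelial-like cells. For Lamp2, both day 7 values lay below both vehicle values in B cell-like cells and all 3 Cre-positive values lay above all 3 Cre-negative values in dendritic-like cells.

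The tetraspanin Cd63 is given by range in B cell-like and T cell-like cells, where its mean was under 5 CPM, and Cd68 in lymphoid and endothelial cells for the same reason. In dendritic-like cells Cd63 was at 374 and 356, 508 and 501, and 433 and 455 CPM, and in macrophage-like cells at 1149 and 869.6, 743 and 1037, and 1041 and 922 CPM. Cd63 in B cell-like cells was at 1.9 to 7.59 (range) CPM and in T cell-like cells at 0.85 to 5.79 (range) CPM. In the endothelium, Cd63 was at 42.5 and 43.4, 89.2 and 55.1, and 92.3 and 33.6 CPM in blood and 511 and 535, 697 and 684, and 633 and 505 CPM in lymphatic endothelial-like cells. For Cd63, both day 3 values lay above both vehicle values in dendritic-like, B cell-like, T cell-like, blood endothelial-like and lymphatic endothelial-like cells and both day 7 values lay above both vehicle values in dendritic-like and B cell-like cells. Cd68 had means under 5 CPM in the lymphoid and endothelial classes compared. In dendritic-like cells Cd68 was at 53.9 and 58.9, 76.2 and 57, and 47.2 and 61.4 CPM, and in macrophage-like cells at 427 and 387, 321 and 427, and 429.8 and 433 CPM. Cd68 in B cell-like cells was at 1.13 to 3.09 (range) CPM and in T cell-like cells at 1.21 to 1.9 (range) CPM. In the endothelium, Cd68 was at 1.31 to 3.52 (range) CPM in blood and 0.808 to 2.63 (range) CPM in lymphatic endothelial-like cells. For Cd68, both day 3 values lay below both vehicle values in B cell-like cells and both day 7 values lay above both vehicle values in macrophage-like cells. Mcoln1 releases calcium from the lysosome. In dendritic-like cells Mcoln1 was at 5.08 and 7.82, 5.53 and 5.21, and 8.94 and 8.04 CPM, and in macrophage-like cells at 16.4 and 21.1, 8.92 and 10.4, and 10.7 and 20.6 CPM. Mcoln1 in B cell-like cells was at 9.8 and 9.8, 9.44 and 12.1, and 8.71 and 11.6 CPM and in T cell-like cells at 6.65 and 6.25, 6.36 and 7.26, and 6.21 and 7.26 CPM. In the endothelium, Mcoln1 was at 11.2 and 11.4, 8.8 and 9.96, and 10.6 and 10.9 CPM in blood and 11.4 and 13.3, 10.2 and 5.98, and 10.1 and 9.4 CPM in lymphatic endothelial-like cells. For Mcoln1, both day 3 values lay below both vehicle values in blood endothelial-like, lymphatic endothelial-like and macrophage-like cells and both day 7 values lay above both vehicle values in dendritic-like cells. Also for Mcoln1, both day 7 values lay below both vehicle values in blood endothelial-like and lymphatic endothelial-like cells and all 3 Cre-positive values lay above all 3 Cre-negative values in B cell-like cells.

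Several proteases ranged widely between classes. Ctsb, a cysteine cathepsin of broad use, had 4221 (3724 to 5123) CPM in macrophage-like, 1350.0 (1163 to 1459) CPM in plasmacytoid dendritic-like and 33.2 (23.4 to 36.8) CPM in B cell-like cells. Ctsd, the main aspartic protease, had 689.6 (497 to 1123) CPM in macrophage-like, 377 (316 to 446) CPM in lymphatic endothelial-like and 12 (3.53 to 23.2) CPM in cDC1-like cells. Ctsl, a cysteine protease, had 1892 (1528 to 2156) CPM in plasmacytoid dendritic-like, 1142 (762 to 1749) CPM in HEV-like, 420.1 (289 to 572) CPM in macrophage-like and 9.89 (5.02 to 21.5) CPM in migratory dendritic-like cells. The proteases of the class II pathway differed in their spread. Ctss ran among the antigen-presenting classes from 2253 (1983 to 2440.1) CPM in monocyte-like to 383 (266 to 492) CPM in cDC1-like and 431 (406 to 503) CPM in B cell-like cells, against 9.39 (8.34 to 12.2) CPM in other blood endothelial-like cells. Lgmn, asparagine endopeptidase, had 562 (486 to 706) CPM in macrophage-like, 186 (147 to 214) CPM in lymphatic endothelial-like, 67.2 (50.5 to 97.1) CPM in B cell-like and 7.69 (4.6 to 13.4) CPM in T cell-like cells. Ctsc, which activates granule proteases, ran from 1425 (1112 to 2031) CPM in macrophage-like to 4.97 (3.41 to 6.48) CPM in other blood endothelial-like cells. Ctsh ran from 1366 (1183 to 1508) CPM in plasmacytoid dendritic-like to 3.01 (1.71 to 4.23) CPM in T cell-like cells. Ctsz, a carboxypeptidase, ran from 1118 (958 to 1450.0) CPM in macrophage-like to 34.1 (32.6 to 38.3) CPM in T cell-like cells. In other blood endothelial-like cells Ctsz was at 156 (147 to 165) CPM. Ctsa, the protective protein of a glycosidase complex, ran from 493 (383 to 614) CPM in macrophage-like to 16 (14 to 20.3) CPM in cDC1-like cells. Tpp1, a tripeptidyl peptidase, ran from 276 (146 to 342) CPM in macrophage-like to 7.06 (0 to 10.0) CPM in cDC1-like cells.

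**Figure D2:**
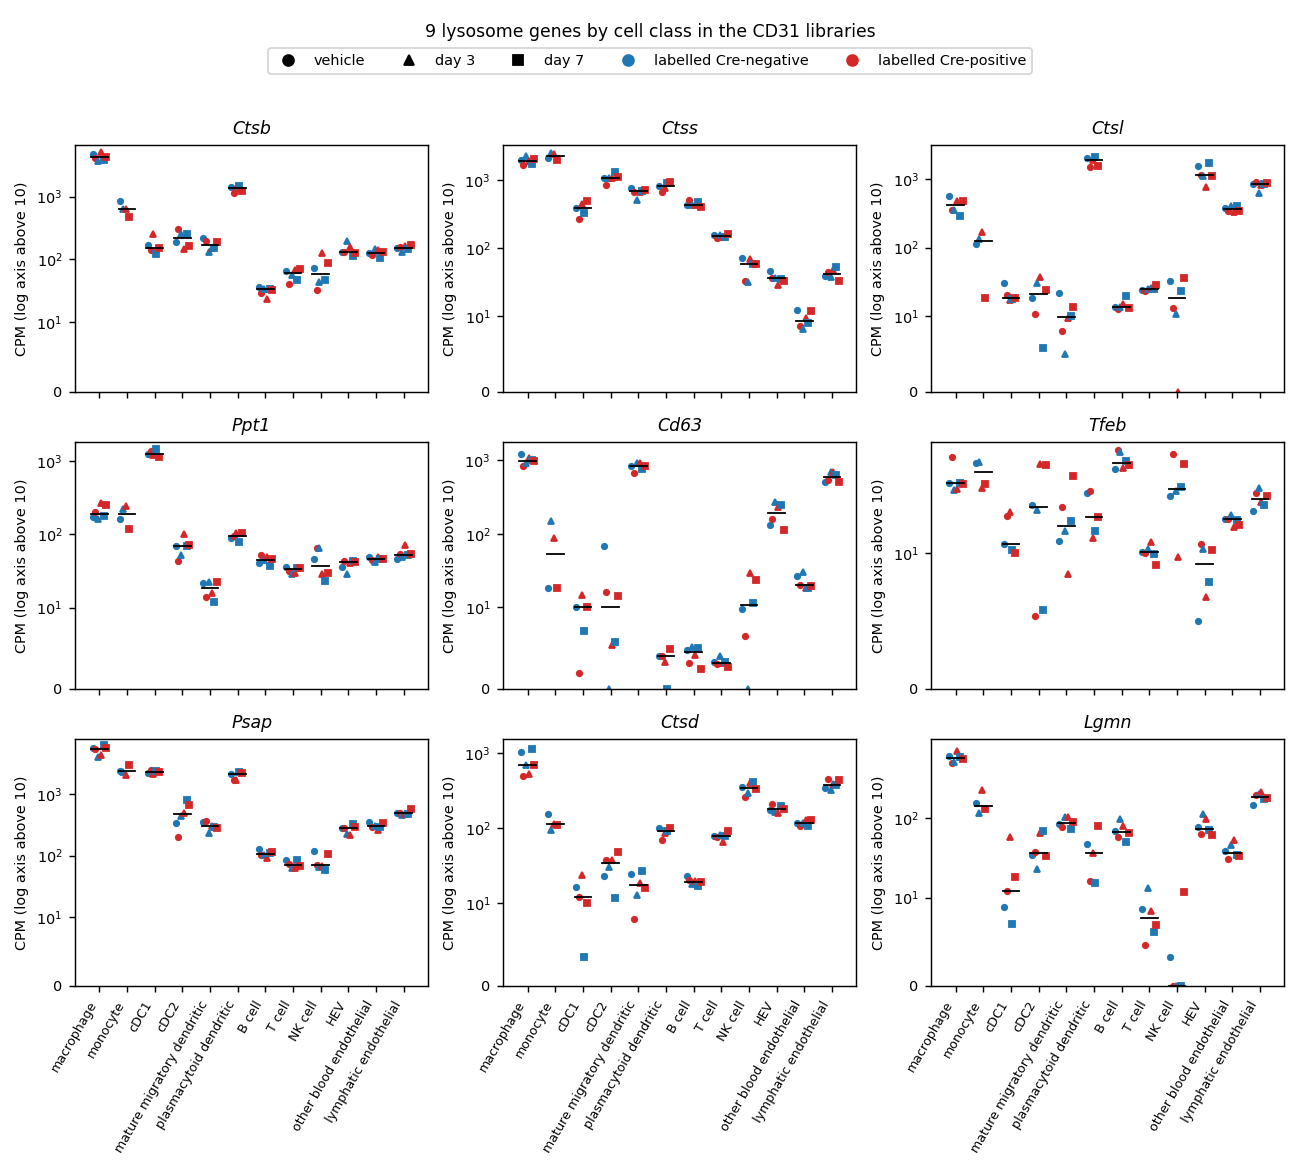
CPM of 9 lysosome genes (panels) by cell class in the CD31 libraries, 1 point a library, on an axis that is linear to 10 and logarithmic above; shape marks treatment, colour the genotype label, and the bar the median. Points of 1 class lie close together next to the gaps between classes: Ppt1 stands apart in cDC1 cells and Cd63 is high in macrophage, migratory dendritic and lymphatic endothelial cells.

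By library, the broad proteases were as follows. In dendritic-like cells Ctsb was at 171 and 231, 159.9 and 173, and 192 and 209 CPM, and in macrophage-like cells at 4479 and 4409, 3242 and 5151, and 4049 and 4515 CPM. Ctsb in B cell-like cells was at 33.5 and 25.8, 34.8 and 29.1, and 25.9 and 32.9 CPM and in T cell-like cells at 59.7 and 41.6, 52.3 and 49.3, and 45.3 and 65.3 CPM. In the endothelium, Ctsb was at 126 and 118, 158 and 144, and 108 and 131 CPM in blood and 151 and 155, 130.4 and 161, and 148 and 170.4 CPM in lymphatic endothelial-like cells. For Ctsb, both day 3 values lay above both vehicle values in blood endothelial-like cells and all 3 Cre-positive values lay above all 3 Cre-negative values in lymphatic endothelial-like cells. Ctsd also matures other cathepsins. In dendritic-like cells Ctsd was at 12.1 and 12.5, 14.6 and 21.1, and 11.4 and 22 CPM, and in macrophage-like cells at 944 and 528, 660.0 and 519, and 955.5 and 769 CPM. Ctsd in B cell-like cells was at 15.6 and 15.9, 12.6 and 18.2, and 15 and 16.6 CPM and in T cell-like cells at 68.6 and 68.4, 63.7 and 64.7, and 70.7 and 75.6 CPM. In the endothelium, Ctsd was at 124 and 122, 127 and 132, and 134 and 133 CPM in blood and 345 and 446, 316 and 381, and 374 and 437 CPM in lymphatic endothelial-like cells. For Ctsd, both day 3 values lay above both vehicle values in dendritic-like and blood endothelial-like cells and both day 3 values lay below both vehicle values in T cell-like cells. Also for Ctsd, both day 7 values lay above both vehicle values in T cell-like and blood endothelial-like cells and all 3 Cre-positive values lay above all 3 Cre-negative values in B cell-like and lymphatic endothelial-like cells. Ctsl processes the invariant chain in the thymus. In dendritic-like cells Ctsl was at 7.81 and 9.9, 12.6 and 11.9, and 10.6 and 24.1 CPM, and in macrophage-like cells at 542 and 364, 284 and 524, and 327 and 416 CPM. Ctsl in B cell-like cells was at 9.98 and 7.68, 14.6 and 9.82, and 8.85 and 12.8 CPM and in T cell-like cells at 21.8 and 20.2, 25.2 and 24.2, and 26.8 and 26.1 CPM. In the endothelium, Ctsl was at 559.5 and 476, 583 and 404, and 847 and 458 CPM in blood and 852 and 923, 632 and 817, and 846 and 872 CPM in lymphatic endothelial-like cells. For Ctsl, both day 3 values lay above both vehicle values in dendritic-like and T cell-like cells and both day 3 values lay below both vehicle values in lymphatic endothelial-like cells. Also for Ctsl, both day 7 values lay above both vehicle values in dendritic-like and T cell-like cells and all 3 Cre-positive values lay below all 3 Cre-negative values in blood endothelial-like cells.

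Ctss and Lgmn act in the class II pathway. In dendritic-like cells Ctss was at 611 and 548, 662 and 579, and 631 and 589 CPM, and in macrophage-like cells at 2037 and 1606, 2209 and 1824, and 1762 and 1951 CPM. Ctss in B cell-like cells was at 422 and 459, 422 and 385, and 524 and 356 CPM and in T cell-like cells at 144 and 144, 144 and 134, and 153 and 138 CPM. In the endothelium, Ctss was at 17.3 and 13.3, 15.4 and 13, and 17.8 and 14.9 CPM in blood and 39.2 and 43.9, 38 and 46.8, and 52.9 and 32.8 CPM in lymphatic endothelial-like cells. For Ctss, both day 3 values lay below both vehicle values in T cell-like cells and all 3 Cre-positive values lay below all 3 Cre-negative values in dendritic-like and blood endothelial-like cells. The T cell-like groups all but touched, with 143.97 CPM at day 3 and 144.12 CPM at vehicle in Cre-negative. In the CD31 libraries Ctss in T cell-like cells was higher at day 3 in both pairs (153.8 and 141.5 CPM at vehicle, 157.8 and 143.3 CPM at day 3). Lgmn cuts after asparagine. In dendritic-like cells Lgmn was at 66.8 and 64.6, 70.7 and 115, and 52.9 and 92.3 CPM, and in macrophage-like cells at 607 and 537, 547 and 682, and 614 and 687 CPM. Lgmn in B cell-like cells was at 64.1 and 47.4, 83 and 87.3, and 52.7 and 61.1 CPM and in T cell-like cells at 6.65 and 4.6, 12.3 and 12.4, and 4.59 and 8.59 CPM. In the endothelium, Lgmn was at 44.2 and 35.8, 62.4 and 60.8, and 46.4 and 37 CPM in blood and 147 and 195, 199 and 214, and 175 and 177 CPM in lymphatic endothelial-like cells. For Lgmn, both day 3 values lay above both vehicle values in dendritic-like, B cell-like, T cell-like, blood endothelial-like and lymphatic endothelial-like cells and both day 7 values lay above both vehicle values in macrophage-like cells.

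Most glycosidases peaked in macrophage-like cells too. Hexa, a subunit of hexosaminidase, ran from 541 (425 to 608) CPM in macrophage-like to 18.8 (16.5 to 22.7) CPM in T cell-like cells. Man2b1, an alpha-mannosidase, had 340.1 (288 to 373) CPM in macrophage-like and 269.8 (236 to 281) CPM in cDC1-like cells but 22.7 (16 to 40.8) CPM in migratory dendritic-like cells. Gusb, the beta-glucuronidase, was at 221 (172 to 254) CPM in cDC1-like and 139 (110.3 to 158) CPM in macrophage-like cells, which did not overlap, and at 12.5 (11.4 to 13.9) CPM in B cell-like cells. Glb1, the beta-galactosidase, ran from 78.6 (46.9 to 121) CPM in macrophage-like to 11.3 (7.26 to 18.8) CPM in migratory dendritic-like cells, and Neu1, a sialidase, from 66.6 (32.2 to 85.6) CPM in macrophage-like to 7.25 (3.53 to 14) CPM in cDC1-like cells. Gaa, which degrades glycogen, ran from 42 (29.8 to 75.4) CPM in macrophage-like to 5.13 (4.01 to 6.24) CPM in T cell-like cells, with 78.1 (69.5 to 105) CPM in fibroblast-like cells of the CD45 libraries. The X-linked Gla, an alpha-galactosidase, had 38.6 (27.4 to 57.1) CPM in B cell-like, 27.9 (18.9 to 42.1) CPM in lymphatic and 5.66 (4.99 to 7.04) CPM in other blood endothelial-like cells. In the CD31 libraries 5 of these 7 had their highest median in macrophage-like cells, all but Gusb and Gla.

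In lipid handling, Npc2 and Ppt1 peaked elsewhere. Psap, the precursor of the saposins that lift lipids to their hydrolases, had 5429 (3964 to 6198) CPM in macrophage-like, 2293 (2116 to 2455) CPM in cDC1-like, 297 (236 to 363) CPM in migratory dendritic-like and 70.6 (62.3 to 85.4) CPM in T cell-like cells. Grn, the precursor of granulins, had 1681 (1232 to 1763) CPM in macrophage-like, 1023 (771 to 1232) CPM in plasmacytoid dendritic-like and 5.96 (4.01 to 10.8) CPM in T cell-like cells. Npc2, the soluble cholesterol carrier, was broad, at 1037 (872 to 1135) CPM in monocyte-like, 1012 (655 to 1042) CPM in migratory dendritic-like, 395 (374 to 419.9) CPM in T cell-like and 100.1 (84 to 116) CPM in B cell-like cells. Ppt1, which strips palmitate from proteins, was at 1256 (1158 to 1454) CPM in cDC1-like cells, against 190.1 (163 to 270.2) CPM in macrophage-like, 69.5 (42.9 to 102) CPM in cDC2-like and 18.6 (12.1 to 22.7) CPM in migratory dendritic-like cells. In the CD45 libraries the cDC1-like value was 1354 (1293 to 1567) CPM. The highest and the lowest median of Ppt1 were both in dendritic classes. Asah1, acid ceramidase, ran from 302 (239.6 to 376) CPM in macrophage-like to 12.8 (11.7 to 14.3) CPM in T cell-like cells. Lipa, acid lipase, had 117 (90.9 to 129) CPM in macrophage-like, 81.4 (77 to 91.9) CPM in other blood endothelial-like and 7.55 (2.27 to 21.5) CPM in migratory dendritic-like cells. Smpd1, acid sphingomyelinase, had 24.2 (16.5 to 53.5) CPM in macrophage-like, 19.1 (14.8 to 20.3) CPM in lymphatic endothelial-like and 1.05 (0 to 4.54) CPM in migratory dendritic-like cells. In lymphatic endothelial-like cells Lipa was at 38.3 (32.2 to 43.9) CPM. In dendritic-like cells Grn was at 82.8 and 95.4, 73.8 and 82.4, and 96 and 81.6 CPM, and in macrophage-like cells at 1713 and 1636, 1066 and 1581, and 1751 and 1528 CPM. Grn in B cell-like cells was at 12.4 and 11.5, 10.2 and 10.5, and 11.9 and 17.1 CPM and in T cell-like cells at 3.32 to 7.01 (range) CPM. In the endothelium, Grn was at 130.3 and 113, 123 and 123, and 135 and 154 CPM in blood and 169 and 176, 182 and 185, and 175 and 206 CPM in lymphatic endothelial-like cells. For Grn, both day 3 values lay above both vehicle values in lymphatic endothelial-like cells and both day 3 values lay below both vehicle values in dendritic-like, B cell-like and macrophage-like cells. In the CD31 libraries alone the macrophage-like values overlapped, at 1763 and 1512 CPM at vehicle and 1232 and 1699 CPM at day 3. The macrophage-like cluster led by Pf4, with less Grn than the one led by Marco, formed 41.2% and 32.4% of these cells at vehicle and 66.7% and 37% at day 3, and its part was not tested. Also for Grn, both day 7 values lay above both vehicle values in blood endothelial-like cells. Npc2 hands cholesterol to Npc1. In dendritic-like cells Npc2 was at 806 and 789, 647 and 796, and 876 and 799 CPM, and in macrophage-like cells at 971 and 853, 855 and 1026, and 682 and 858 CPM. Npc2 in B cell-like cells was at 113 and 89.7, 101 and 95.1, and 93.4 and 108 CPM and in T cell-like cells at 446 and 435, 471 and 412, and 471 and 411 CPM. In the endothelium, Npc2 was at 149 and 142, 168 and 166, and 169 and 153 CPM in blood and 212 and 190.2, 198 and 217, and 214 and 185 CPM in lymphatic endothelial-like cells. For Npc2, both day 3 values lay above both vehicle values in blood endothelial-like cells and both day 7 values lay above both vehicle values in blood endothelial-like cells. Also for Npc2, all 3 Cre-positive values lay below all 3 Cre-negative values in T cell-like cells.

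The V-ATPase subunits were present in every class. Atp6v0c, the proteolipid ring, ran from 787 (586 to 971) CPM in macrophage-like to 119.7 (104 to 125) CPM in T cell-like cells, and Atp6v0d1, of the same membrane part, from 226 (171 to 251) CPM in macrophage-like to 38.9 (37.1 to 48.3) CPM in HEV-like cells. Of the soluble part, Atp6v1a, the catalytic subunit, ran from 181 (167 to 205) CPM in macrophage-like to 26.6 (24.8 to 31.2) CPM in T cell-like cells, and Atp6v1b2 from 181 (132 to 302) CPM in macrophage-like to 19.9 (16 to 28) CPM in HEV-like cells. Atp6v1h, a regulatory subunit, spanned 83.8 (63.1 to 140.3) CPM in plasmacytoid dendritic-like to 39.9 (35.3 to 50.8) CPM in cDC1-like cells. In dendritic-like cells Atp6v0c was at 187 and 143, 197 and 198, and 162 and 230.0 CPM, and in macrophage-like cells at 782 and 560.1, 1038 and 885, and 746 and 828 CPM. Atp6v0c in B cell-like cells was at 145 and 144, 148 and 158, and 158 and 149 CPM and in T cell-like cells at 111 and 108, 126 and 118, and 118 and 126 CPM. In the endothelium, Atp6v0c was at 213 and 193, 229 and 239.7, and 215 and 204 CPM in blood and 226 and 180.4, 225 and 259, and 210.3 and 192 CPM in lymphatic endothelial-like cells. For Atp6v0c, both day 3 values lay above both vehicle values in dendritic-like, B cell-like, T cell-like, blood endothelial-like and macrophage-like cells and both day 7 values lay above both vehicle values in B cell-like and T cell-like cells. Atp6v0d1 joins the membrane part to the central stalk. In dendritic-like cells Atp6v0d1 was at 62.5 and 86.5, 62.8 and 106, and 74 and 92.9 CPM, and in macrophage-like cells at 216 and 200.02, 144 and 273, and 238 and 222 CPM. Atp6v0d1 in B cell-like cells was at 123 and 154, 85.2 and 147, and 114 and 109 CPM and in T cell-like cells at 41.5 and 51.8, 39.7 and 59.7, and 35.6 and 44.6 CPM. In the endothelium, Atp6v0d1 was at 48.2 and 49.4, 55.2 and 51.1, and 46.3 and 51.1 CPM in blood and 58.3 and 62.9, 59 and 58.8, and 65 and 57.6 CPM in lymphatic endothelial-like cells. For Atp6v0d1, both day 3 values lay above both vehicle values in blood endothelial-like cells and both day 7 values lay above both vehicle values in macrophage-like cells. Also for Atp6v0d1, both day 7 values lay below both vehicle values in B cell-like cells and all 3 Cre-positive values lay above all 3 Cre-negative values in dendritic-like and T cell-like cells.

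Classes of the same libraries were compared by whether all 6 values of one lay past all 6 of the other. Macrophage-like cells were above dendritic-like cells (cDC1, cDC2 and migratory together) for 32 of 39 genes in the CD31 libraries, against 17.4% of genes, and for 29 in the CD45 libraries, against 14.8%. No lysosome gene was lower (8.58% and 8.6% of genes). The median log2 ratio over the 39 was 1.91 in the CD31 libraries, beside 0.25 over all genes. They were above B cell-like cells for 34 (24.7% of genes) and above blood endothelial-like cells for 33 (17.5%), with Laptm4a alone below the latter (24.9%).

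Dendritic-like cells were above B cell-like cells for 18 genes in the CD31 libraries (20.6% of genes) and 18 in the CD45 libraries (24.2%), among them Ctsb, Ctss, Psap, Grn and Ppt1. Tfeb, Lamp2 and Neu1 were lower in dendritic-like cells in both fractions; in all, 6 were lower in the CD31 libraries (23.9%) and 3 in the CD45 libraries (30.1%). B cell-like cells were above T cell-like cells for 21 of 37 genes at 5 CPM or more in either (18.2%), and below for 6, Ctsb, Ctsd, Ctsl, Lipa, Npc2 and Scarb2 (19.9%). Blood endothelial-like cells were above T cell-like cells for 28 of 38 (42.7%), and below for Ctsc, Ctss, Gla and Npc2 (22.9%).

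Within the endothelium, lymphatic cells had more of 15 of 38 lysosome genes than blood endothelial-like cells, against 22.7% of genes: Tfeb, Lamp2, Cd63, Ctsd, Ctsh, Ctss, Lgmn, Gaa, Gla, Npc2, Psap, Grn, Scarb2, Atp6v0d1 and Atp6v1b2. They had less of Man2b1, Neu1 and Lipa (13.4%). HEV-like cells were above other blood endothelial-like cells for 10 of 38 (8.26%): Lamp1, Cd63, Ctsc, Ctsd, Ctsh, Ctsl, Ctss, Lgmn, Hexa and Npc2. They were below for Tfeb, Lipa, Npc1, Atp6v0d1, Atp6v1h and Laptm4a (34.5%). All but Lamp1, Cd63, Hexa and Npc2 of the HEV-high genes are proteases, and 1553 and 1158, 1100.3 and 762, and 1749 and 1126 CPM of Ctsl in HEV-like cells faced 381 and 339.7, 412 and 328, and 406 and 342 CPM in the other blood endothelial-like cells. Finer clusters, named by a leading gene, differed further. Ctsl had a median of 1434 (1188 to 1683) CPM in the lymphatic cluster led by Lyve1, a hyaluronan receptor, 503 (419.9 to 523) CPM in the blood endothelial cluster led by Car4 and 139.6 (107 to 156) CPM in the blood endothelial cluster led by Nav3. Lgmn had 442 (380.4 to 509.7) CPM in the Lyve1 cluster and 17.1 (14.6 to 20.8) CPM in the Car4 cluster. Ctsd was at 885 (678 to 998) CPM in the Lyve1 cluster and 234 (206 to 309.8) CPM in the lymphatic cluster led by Ackr4. Cd63 was at 828 (642 to 1127) CPM in the lymphatic cluster led by Madcam1 and 7.54 (2.33 to 8.78) CPM in the blood endothelial cluster led by Penk. The Lyve1 cluster was small, 652 cells over the 6 libraries.

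Macrophage-like cells fell into 2 clusters, one with the scavenger receptor Marco and Timd4 (106 cells in the CD31 and 42 in the CD45 libraries) and one with Pf4 and Apoe (60 and 67). Summed over the libraries, Grn was 2029 CPM (95% interval 1959.8 to 2099.8) in the Marco cluster and 807 CPM (95% interval 746 to 872) in the Pf4 cluster of the CD31 libraries, and 1991 CPM (95% interval 1888 to 2099) and 813 CPM (95% interval 749.8 to 881) in the CD45 libraries. Ctsd went the other way, at 467 CPM (95% interval 434 to 502) and 1366 CPM (95% interval 1286 to 1449.6) in the CD31 libraries and 439 CPM (95% interval 391 to 492) and 828 CPM (95% interval 764 to 897) in the CD45 libraries. Ctsb had 5075 CPM (95% interval 4965 to 5187) and 3300.1 CPM (95% interval 3176 to 3428) in the CD31 libraries. These Poisson intervals cover counting error only, and sums over libraries have no replicate check.

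Treatment and label were then tested within 6 classes, each day against vehicle and Cre-positive against Cre-negative, over 6 libraries with 2 residual degrees of freedom. No lysosome gene passed an adjusted p of 0.05 in any of the 18 comparisons with edgeR. Each library is 1 value, and the labels do not say that libraries of a group come from separate animals. With 1 library per combination, the spread behind the p-values is what the additive terms for treatment and label leave over. It counts any interaction of treatment and label as error, so it is not a spread between replicates, and it may be technical. The sums do not separate the share of expressing cells from the RNA per cell, which were not counted apart here. A pair is the 2 libraries of 1 treatment for the label, and the 2 of 1 label for a treatment. Groups are called apart where all values of one lie past all of the other. One pattern was chosen after its values were seen: Lgmn and Cd63 had both day 3 values above both vehicle values in dendritic-like, B cell-like, T cell-like, blood endothelial-like and lymphatic endothelial-like cells alike. Of 9885 genes at 1 CPM or more in these 5 classes, 88 did so (0.89%), and 2 of the 39 lysosome genes. The pattern rests on the CD45 libraries for B cell-like and T cell-like cells. In the CD31 libraries Cd63 did not lie apart in B cell-like (4.81 and 3.23 CPM at vehicle, 5.11 and 4.18 CPM at day 3) or T cell-like cells (3.32 and 3.01 CPM, 3.98 and 3.12 CPM), nor Lgmn in T cell-like cells (8.72 and 4.6 CPM, 13.4 and 8.47 CPM). Without HEV-like cells Cd63 did not lie apart in the blood endothelium either (26.4 and 20.3 CPM, 30.1 and 18.5 CPM), and without the migratory cells Lgmn did not in dendritic-like cells of the CD45 libraries (34.8 and 19.3 CPM, 28.3 and 59.6 CPM). In B cell-like and T cell-like cells, where Cd63 was at a few CPM, the share of free RNA was also higher at day 3 than at vehicle, from 0.702% and 0.754% to 1.27% in B cell-like and from 0.471% and 0.518% to 0.973% and 1.01% in T cell-like cells. The B, T and dendritic classes share their libraries, as do the endothelial ones, so the classes are not independent.

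**Figure D3:**
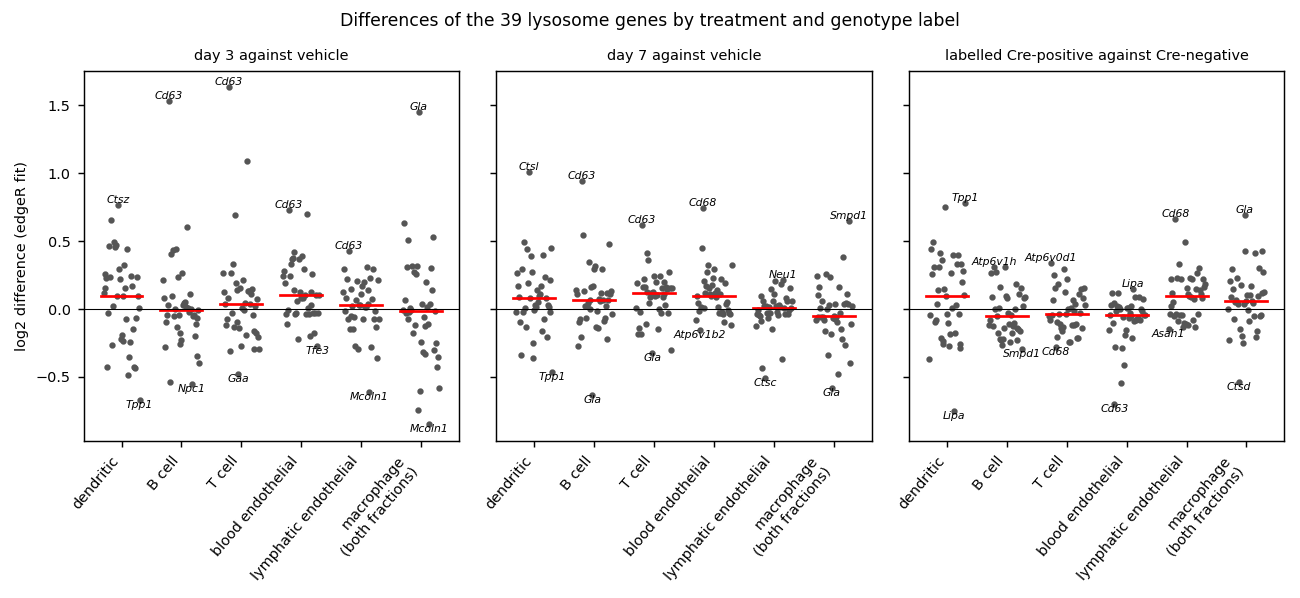
Fitted log2 difference of each of the 39 lysosome genes (points) in 6 classes for day 3 against vehicle, day 7 against vehicle and Cre-positive against Cre-negative. The red bar is the median of the 39 and the genes at either end are named; medians lie between -0.05 and 0.11 in all 18 columns, and no point passed the adjusted threshold.

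In blood endothelial-like cells Lgmn had the smallest p at day 3. Its values, 44.2 and 35.8, 62.4 and 60.8, and 46.4 and 37 CPM, put both day 3 libraries above all 4 others. The log2 difference was 0.70 (SE 0.12, adjusted p = 0.0931), higher in 2 of 2 pairs, and the adjusted p ran from 0.0164 to 0.577 over its alternatives; DESeq2 gave 0.0164. It was at 76.4 and 63.8, 113 and 98.5, and 71.3 and 60.4 CPM in HEV-like and 38.4 and 30.2, 45.6 and 52.8, and 34.2 and 32.9 CPM in other blood endothelial-like cells, and without the HEV-like clusters the difference was 0.60 (adjusted p = 0.151). The summed level of 14 macrophage markers in these cells was 98.1 and 108, 72.8 and 76.2, and 73.5 and 93.6 CPM, lower at day 3 than at vehicle, and that of 8 monocyte markers was 32.2 and 25.4, 57.2 and 47.9, and 17.5 and 26.3 CPM, higher at day 3, with no marker of either list at 0 in all 6 libraries. The part of these in the result was not tested. Next, Gusb was at 33.2 and 27.4, 37.2 and 38.3, and 29.1 and 34.4 CPM, a log2 difference of 0.39 (SE 0.13, adjusted p = 0.169), higher in 2 of 2 pairs. Also Asah1 was at 55 and 47.4, 61.6 and 54.1, and 47.8 and 45.5 CPM, a log2 difference of 0.24 (SE 0.09, adjusted p = 0.203), higher in 2 of 2 pairs. Ctsb had a log2 difference of 0.37 (SE 0.12, adjusted p = 0.159), higher in 2 of 2 pairs, with values given above. Without the day 7 Cre-negative library the day 3 difference was 0.697 for Lgmn and 0.776 for Cd63, and without the day 7 Cre-positive library 0.698 and 0.777. With no filter on low counts edgeR called Lgmn alone (adjusted p = 0.0226), and the share of all genes called at that setting is not given here. Blood endothelial-like day 3 calls by edgeR numbered 0 of 39 lysosome genes, beside 0 of 14846 genes overall (0%), and by DESeq2 1, while an unadjusted p under 0.05 was found for 5 of the 39 and 21.3% of all genes. That 0% is the share for edgeR alone. DESeq2 called many genes beside Lgmn in this comparison, and their number is given in the closing section. Blood endothelial-like day 3 medians of the log2 difference were 0.10 over the 39 and -0.02 over all genes, with groups apart upward for 11 of 39 (23% of genes) and downward for 8 (36.4%).

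At day 7 in blood endothelial-like cells, Tpp1 was at 59.1 and 55.3, 58.8 and 58.4, and 70.2 and 68.1 CPM, a log2 difference of 0.32 (SE 0.09, adjusted p = 1.00), higher in 2 of 2 pairs. Grn had a log2 difference of 0.29 (SE 0.11, adjusted p = 1.00), higher in 2 of 2 pairs. The galactosidase Glb1 was at 36.6 and 31.9, 37 and 34.3, and 41.1 and 36.3 CPM, a log2 difference of 0.23 (SE 0.10, adjusted p = 1.00), higher in 2 of 2 pairs. The mannosidase Man2b1 was at 57.2 and 52.1, 50.7 and 50.8, and 64.9 and 58.3 CPM, a log2 difference of 0.22 (SE 0.10, adjusted p = 1.00), higher in 2 of 2 pairs. These 4 have the smallest unadjusted p there. Blood endothelial-like day 7 calls by edgeR numbered 0 of 39 lysosome genes, beside 0 of 14846 genes overall (0%), and by DESeq2 0, while an unadjusted p under 0.05 was found for 2 of the 39 and 2.78% of all genes. Blood endothelial-like day 7 medians of the log2 difference were 0.10 over the 39 and 0.01 over all genes, with groups apart upward for 6 of 39 (9.39% of genes) and downward for 3 (20.6%).

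By label, Ctsl was lower in every Cre-positive library of blood endothelial-like cells than in its Cre-negative pair. Ctsl had a log2 difference of -0.54 (SE 0.16, adjusted p = 1.00), lower in 3 of 3 pairs. In HEV-like cells alone the day 7 values were the farthest apart, as listed above. Cd63 had a log2 difference of -0.70 (SE 0.28, adjusted p = 1.00), lower in 2 of 3 pairs, and Lgmn had a log2 difference of -0.21 (SE 0.10, adjusted p = 1.00), lower in 3 of 3 pairs. Ctss had a log2 difference of -0.29 (SE 0.10, adjusted p = 1.00), lower in 3 of 3 pairs. HEV-like cells formed 7.37% and 8.48%, 10.6% and 8.88%, and 16.2% and 7.17% of the class, and HEV markers summed to 5782 and 5512, 9393 and 4288, and 29990.1 and 4320.1 CPM in it, highest in the day 7 Cre-negative library where Ctsl and Cd63 were highest too. Without the HEV-like clusters the difference was -0.19 for Ctsl and -0.28 for Cd63, and that of Ctss turned to 0.0945. Taken apart, HEV-like and other blood endothelial-like cells each had less Ctsl in the Cre-positive library of each pair, as listed above. The part of HEV-like cells in the label differences was not tested. Blood endothelial-like Cre-positive calls by edgeR numbered 0 of 39 lysosome genes, beside 1 of 14462 genes overall (0.00691%), and by DESeq2 0, while an unadjusted p under 0.05 was found for 3 of the 39 and 2.98% of all genes. Blood endothelial-like Cre-positive medians of the log2 difference were -0.04 over the 39 and 0.00 over all genes, with groups apart upward for 0 of 39 (1.76% of genes) and downward for 3 (2.61%).

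**Figure D4:**
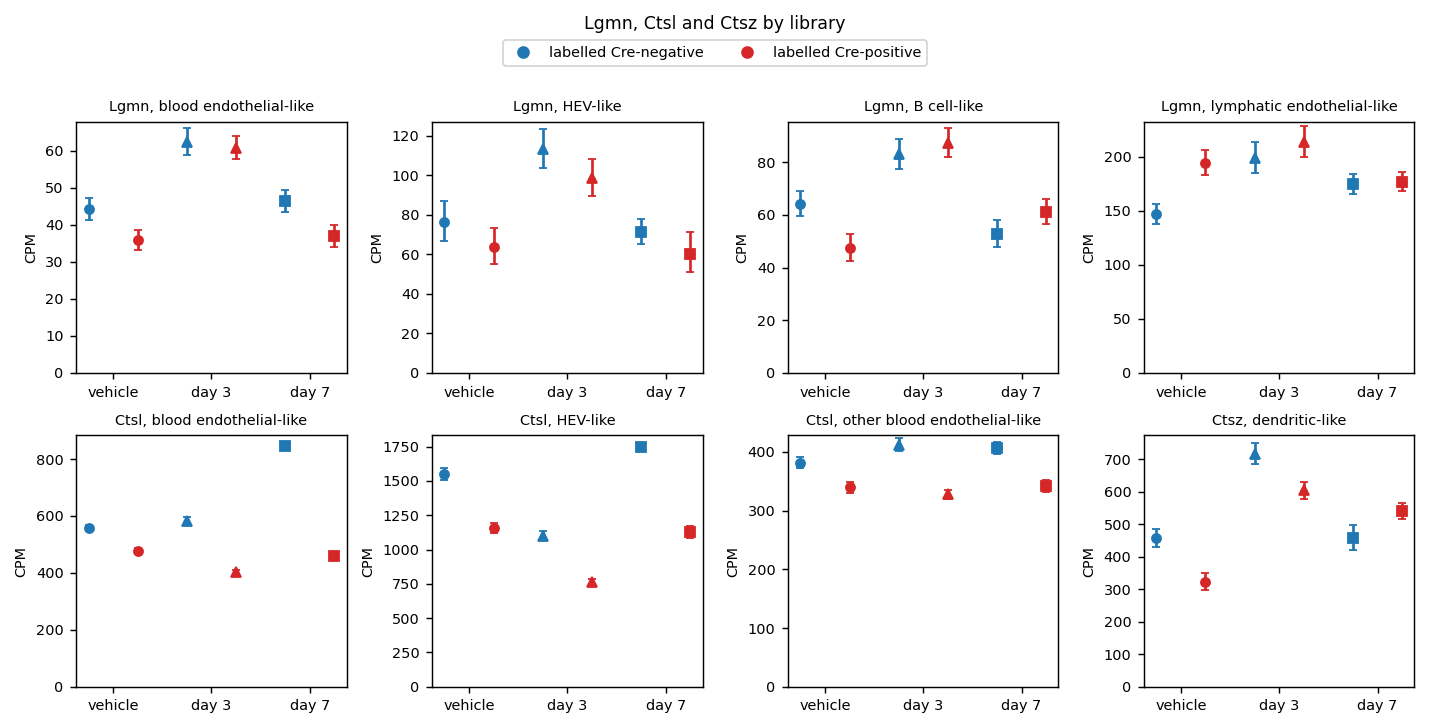
CPM by library (x axis, treatment; colour, genotype label) of Lgmn, Ctsl and Ctsz in the classes named above each panel, with 95% Poisson intervals as bars that cover counting error only. Lgmn lies highest at day 3 in blood endothelial and B cells, and Ctsl in HEV cells is highest in the day 7 Cre-negative library.

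In lymphatic endothelial-like cells at day 3, Mcoln1 had a log2 difference of -0.61 (SE 0.31, adjusted p = 0.996), lower in 2 of 2 pairs, and Tfe3 had a log2 difference of -0.36 (SE 0.21, adjusted p = 0.996), lower in 2 of 2 pairs. Cd63 had a log2 difference of 0.43 (SE 0.27, adjusted p = 0.996), higher in 2 of 2 pairs. The glucosidase Gaa was at 31.6 and 29.5, 23.4 and 25.1, and 39.2 and 29.8 CPM, a log2 difference of -0.30 (SE 0.22, adjusted p = 0.996), lower in 2 of 2 pairs. Lymphatic endothelial-like day 3 calls by edgeR numbered 0 of 39 lysosome genes, beside 0 of 13345 genes overall (0%), and by DESeq2 0, while an unadjusted p under 0.05 was found for 0 of the 39 and 4.79% of all genes. Lymphatic endothelial-like day 3 medians of the log2 difference were 0.03 over the 39 and -0.01 over all genes, with groups apart upward for 5 of 39 (13.9% of genes) and downward for 6 (17.6%). At day 7 Ctsc was at 6.26 and 6.19, 5.93 and 6.45, and 5.2 and 3.71 CPM, a log2 difference of -0.51 (SE 0.35, adjusted p = 1.00), lower in 2 of 2 pairs, and the difference turned to 0.0347 with free RNA subtracted. Mcoln1 had a log2 difference of -0.37 (SE 0.29, adjusted p = 1.00), lower in 2 of 2 pairs. Then Neu1 was at 18.8 and 21.1, 22.1 and 23.7, and 23.2 and 23.9 CPM, a log2 difference of 0.22 (SE 0.19, adjusted p = 1.00), higher in 2 of 2 pairs, and the difference was 0.0942 without the Madcam1 cluster. Finally, Gusb was at 29.8 and 22.4, 32.3 and 25.3, and 27.8 and 32.8 CPM, a log2 difference of 0.20 (SE 0.21, adjusted p = 1.00), higher in 1 of 2 pairs, and the difference was -0.0700 without the day 7 Cre-positive and 0.473 without the day 7 Cre-negative library. Lymphatic endothelial-like day 7 calls by edgeR numbered 0 of 39 lysosome genes, beside 0 of 13345 genes overall (0%), and by DESeq2 0, while an unadjusted p under 0.05 was found for 0 of the 39 and 0.727% of all genes. Lymphatic endothelial-like day 7 medians of the log2 difference were 0.01 over the 39 and -0.01 over all genes, with groups apart upward for 1 of 39 (12.2% of genes) and downward for 2 (9.43%).

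By label in lymphatic endothelial-like cells, the galactosidase Gla was at 18.9 and 42.1, 28.3 and 30.1, and 25.6 and 27.6 CPM, a log2 difference of 0.50 (SE 0.23, adjusted p = 1.00), higher in 3 of 3 pairs. The vehicle pair was the farthest apart, and the other pairs were close. The thioesterase Ppt1 was at 46.7 and 53.2, 49 and 72.4, and 52.8 and 54.3 CPM, a log2 difference of 0.30 (SE 0.18, adjusted p = 1.00), higher in 3 of 3 pairs. Ctsd had a log2 difference of 0.33 (SE 0.20, adjusted p = 1.00), higher in 3 of 3 pairs. The cholesterol exporter Npc1 was at 15.6 and 23.3, 16.2 and 14.8, and 18.6 and 20.8 CPM, a log2 difference of 0.26 (SE 0.19, adjusted p = 1.00), higher in 2 of 3 pairs. Macrophage markers summed to 97.5 and 477, 282 and 237, and 181 and 292 CPM in this class, with Cd163 and Fcgr1 of the 14 at 0. Marco and Mrc1 of that list also lead the Lyve1 cluster, which is high in Ctsd and formed 6.78% and 20.03%, 12.8% and 18.1%, and 12.7% and 14.3% of the class, more in the Cre-positive library of each pair. The part of either in these differences was not tested. Lymphatic endothelial-like cells had medians of 6654.5 and 7208.5, 6945.5 and 8293, and 6451.5 and 7510.5 UMIs a cell. Depth was higher in the Cre-positive library of each pair, and its part was not tested. Without the Madcam1 cluster, the difference was 0.52 for Ctsd and 0.17 for Npc1. Lymphatic endothelial-like Cre-positive calls by edgeR numbered 0 of 39 lysosome genes, beside 1 of 12932 genes overall (0.00773%), and by DESeq2 0, while an unadjusted p under 0.05 was found for 0 of the 39 and 2.49% of all genes. Lymphatic endothelial-like Cre-positive medians of the log2 difference were 0.10 over the 39 and -0.01 over all genes, with groups apart upward for 3 of 39 (2.5% of genes) and downward for 1 (5.14%).

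In dendritic-like cells Ctsz and Cd63 had their highest values at day 3 and Psap its lowest. Of the cathepsins, Ctsz was at 457 and 323, 716 and 604, and 457 and 541 CPM, a log2 difference of 0.77 (SE 0.20, adjusted p = 0.292), higher in 2 of 2 pairs. The aminopeptidase Ctsh was at 619 and 425, 764 and 661, and 507 and 659 CPM, a log2 difference of 0.46 (SE 0.22, adjusted p = 0.465), higher in 2 of 2 pairs. Psap was at 986 and 966, 827 and 628, and 1056 and 936 CPM, a log2 difference of -0.44 (SE 0.17, adjusted p = 0.405), lower in 2 of 2 pairs. Macrophage markers summed to 74.2 and 65.1, 35.5 and 54.5, and 61 and 96.5 CPM in this class, lowest at day 3, and their part was not tested. Cd63 had a log2 difference of 0.47 (SE 0.15, adjusted p = 0.344), higher in 2 of 2 pairs. Mature migratory cells, high in Cd63 and low in Psap, formed 60.6% and 69%, 65.4% and 75.6%, and 67.1% and 59.2% of the class. Without them the day 3 difference was 0.62 for Ctsz, -0.41 for Psap and 2.70 for Cd63 (adjusted p = 0.345). With no filter on low counts edgeR called Ctsz (adjusted p = 0.00465), among many other genes whose number is given in the closing section. Dendritic-like day 3 calls by edgeR numbered 0 of 39 lysosome genes, beside 0 of 10513 genes overall (0%), and by DESeq2 0 of the 37 it gave an adjusted p, while an unadjusted p under 0.05 was found for 3 of the 39 and 11.4% of all genes. Dendritic-like day 3 medians of the log2 difference were 0.10 over the 39 and 0.01 over all genes, with groups apart upward for 9 of 39 (18% of genes) and downward for 5 (16.8%). At day 7 Ctsl had a log2 difference of 1.01 (SE 0.38, adjusted p = 1.00), higher in 2 of 2 pairs, with the day 7 Cre-positive library above the rest. In the CD31 libraries Ctsl in these cells was at 24.1 and 13.5 CPM at vehicle and 11.6 and 17.4 CPM at day 7, lower in the Cre-negative pair. Ctsz had a log2 difference of 0.39 (SE 0.20, adjusted p = 1.00), higher in 2 of 2 pairs, and Cd63 had a log2 difference of 0.29 (SE 0.15, adjusted p = 1.00), higher in 2 of 2 pairs. The subunit Atp6v1h was at 42.2 and 62.5, 42.2 and 60.3, and 40.7 and 42 CPM, a log2 difference of -0.34 (SE 0.22, adjusted p = 1.00), lower in 2 of 2 pairs, and the difference turned to 0.0433 without the migratory cells. Dendritic-like day 7 calls by edgeR numbered 0 of 39 lysosome genes, beside 0 of 10513 genes overall (0%), and by DESeq2 0, while an unadjusted p under 0.05 was found for 1 of the 39 and 2.65% of all genes. Dendritic-like day 7 medians of the log2 difference were 0.08 over the 39 and 0.00 over all genes, with groups apart upward for 4 of 39 (12.7% of genes) and downward for 3 (12.2%).

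By label in dendritic-like cells, Atp6v0d1 had a log2 difference of 0.44 (SE 0.14, adjusted p = 0.209), higher in 3 of 3 pairs. The subunit Atp6v1b2 was at 67.2 and 117, 50.5 and 86.4, and 79.7 and 87.9 CPM, a log2 difference of 0.49 (SE 0.17, adjusted p = 0.217), higher in 3 of 3 pairs. X-linked Gla was at 14.4 and 20.8, 11.8 and 31.5, and 12.2 and 16.4 CPM, a log2 difference of 0.75 (SE 0.25, adjusted p = 0.209), higher in 3 of 3 pairs. The lipase Lipa was at 37.1 and 29.2, 35.9 and 13.8, and 39.8 and 32.2 CPM, a log2 difference of -0.75 (SE 0.25, adjusted p = 0.212), lower in 3 of 3 pairs. In the CD31 libraries, not tested, Lipa was at 36.4 and 32.9, 8.99 and 27, and 28.4 and 39.2 CPM, higher in Cre-positive at day 3 and day 7. Atp6v0d1, Atp6v1b2 and Gla were lower there in Cre-positive at day 3, day 7 and vehicle respectively, and higher in their other pairs. Dendritic-like cells of the CD45 libraries had medians of 8168 and 10318, 8285 and 12938.5, and 7145 and 9433.5 UMIs a cell. Depth was thus higher in the Cre-positive library of each pair, and its part in the label differences was not tested. Without the migratory cells the label difference of Atp6v1b2 was 0.14, and with no filter on low counts edgeR called Lipa (adjusted p = 0.0366). For that setting the share of all genes called is not given here. Dendritic-like Cre-positive calls by edgeR numbered 0 of 39 lysosome genes, beside 0 of 10057 genes overall (0%), and by DESeq2 0 of the 12 it gave an adjusted p, while an unadjusted p under 0.05 was found for 7 of the 39 and 17.5% of all genes. Dendritic-like Cre-positive medians of the log2 difference were 0.09 over the 39 and -0.01 over all genes, with groups apart upward for 12 of 39 (12.6% of genes) and downward for 3 (6.76%).

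In B cell-like cells Ctsc and Lgmn were highest at day 3. The dipeptidyl peptidase Ctsc was at 209.5 and 209.6, 271 and 297, and 188 and 206 CPM, a log2 difference of 0.43 (SE 0.12, adjusted p = 0.366), higher in 2 of 2 pairs. Lgmn had a log2 difference of 0.60 (SE 0.17, adjusted p = 0.372), higher in 2 of 2 pairs. The exporter Npc1 was at 14.2 and 15.1, 10.8 and 9.3, and 14.1 and 13.4 CPM, a log2 difference of -0.55 (SE 0.16, adjusted p = 0.4), lower in 2 of 2 pairs. In B cell-like cells of the CD31 libraries Npc1 went from 11 to 14.6 CPM in the Cre-negative and from 19 to 8.36 CPM in the Cre-positive pair. Ctsc and Lgmn were higher at day 3 in both pairs there. Cd63, at 1.9 to 7.59 CPM, had the smallest unadjusted p, with a log2 difference of 1.53 (SE 0.34, adjusted p = 0.25), higher in 2 of 2 pairs. Macrophage markers summed to 9.34 and 10.1, 9.95 and 10.1, and 5.76 and 9.36 CPM in these cells, with Cd163 of the 14 at 0. Free RNA, which held Cd63 at a median of 303 CPM in the CD45 libraries, made 0.754% and 0.702%, 1.27% and 1.27%, and 0.736% and 1.16% of their UMIs, more at day 3 than at vehicle. With free RNA subtracted the day 3 difference was 1.42 for Cd63 (adjusted p = 0.587) and 0.61 for Lgmn. Without the day 7 Cre-negative library the day 3 difference was 1.53 for Cd63 and 0.62 for Lgmn. With no filter on low counts edgeR called both (adjusted p = 0.000111 and 0.00198), and the share of all genes called at that setting is not given here. B cell-like day 3 calls by edgeR numbered 0 of 39 lysosome genes, beside 4 of 12109 genes overall (0.033%; 0.0248% higher, 0.00826% lower), and by DESeq2 0, while an unadjusted p under 0.05 was found for 6 of the 39 and 9.13% of all genes. B cell-like day 3 medians of the log2 difference were -0.01 over the 39 and 0.00 over all genes, with groups apart upward for 7 of 39 (18.2% of genes) and downward for 5 (13.4%). At day 7 Gla was at 43.8 and 54.8, 28.6 and 56.1, and 32.8 and 29.2 CPM, a log2 difference of -0.63 (SE 0.22, adjusted p = 0.984), lower in 2 of 2 pairs. Cd63 had a log2 difference of 0.94 (SE 0.36, adjusted p = 0.984), higher in 2 of 2 pairs. Then Man2b1 was at 53.5 and 45.6, 46.6 and 52, and 53.9 and 66.5 CPM, a log2 difference of 0.30 (SE 0.16, adjusted p = 0.984), higher in 2 of 2 pairs. Last, Smpd1 was at 7.35 and 4.5, 5.85 and 5.52, and 7.91 and 8.27 CPM, a log2 difference of 0.48 (SE 0.26, adjusted p = 0.984), higher in 2 of 2 pairs. With no filter on low counts edgeR called Gla in B cell-like cells at day 7 (adjusted p = 0.0194), and the share of all genes called at that setting is not given here. Without the day 7 Cre-negative library the difference of Gla moved from -0.63 to -1.02. Day 7 is then 1 library, which is assumed to vary like the other groups. B cell-like day 7 calls by edgeR numbered 0 of 39 lysosome genes, beside 0 of 12109 genes overall (0%), and by DESeq2 0, while an unadjusted p under 0.05 was found for 2 of the 39 and 3.77% of all genes. B cell-like day 7 medians of the log2 difference were 0.06 over the 39 and 0.00 over all genes, with groups apart upward for 7 of 39 (13% of genes) and downward for 7 (12.4%).

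By label in B cell-like cells, the subunit Atp6v1h was at 65.2 and 90.2, 64.7 and 94.3, and 62.2 and 68.4 CPM, a log2 difference of 0.31 (SE 0.10, adjusted p = 0.309), higher in 3 of 3 pairs. Lamp1 had a log2 difference of -0.24 (SE 0.09, adjusted p = 0.33), lower in 3 of 3 pairs. The sialidase Neu1 was at 35.6 and 31.3, 35.2 and 31.8, and 32.2 and 29.6 CPM, a log2 difference of -0.23 (SE 0.10, adjusted p = 0.362), lower in 3 of 3 pairs. The carboxypeptidase Ctsz was at 205 and 178, 239 and 212, and 200.1 and 193 CPM, a log2 difference of -0.22 (SE 0.10, adjusted p = 0.369), lower in 3 of 3 pairs. B cell-like Cre-positive calls by edgeR numbered 0 of 39 lysosome genes, beside 1 of 11725 genes overall (0.00853%), and by DESeq2 0 of the 11 it gave an adjusted p, while an unadjusted p under 0.05 was found for 2 of the 39 and 13.8% of all genes. B cell-like Cre-positive medians of the log2 difference were -0.05 over the 39 and 0.00 over all genes, with groups apart upward for 3 of 39 (15.2% of genes) and downward for 2 (4.61%). These cells had medians of 3062.5 and 3610, 3134.5 and 4278, and 2506 and 3456 UMIs a cell. Depth was higher in the Cre-positive library of each pair, and its part was not tested.

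T cell-like cells, with the lowest levels of many of these genes, had both day 3 values of Lgmn and Ctsc above, and both of Psap below, both vehicle values. Lgmn had a log2 difference of 1.09 (SE 0.30, adjusted p = 0.63), higher in 2 of 2 pairs. The dipeptidyl peptidase Ctsc was at 62.5 and 70.7, 77.3 and 95.1, and 54.4 and 66.4 CPM, a log2 difference of 0.33 (SE 0.10, adjusted p = 0.721), higher in 2 of 2 pairs. The saposin precursor Psap was at 72.6 and 72.5, 62.6 and 59.1, and 72.7 and 84.8 CPM, a log2 difference of -0.29 (SE 0.10, adjusted p = 0.807), lower in 2 of 2 pairs. Cd63 had a log2 difference of 1.63 (SE 0.61, adjusted p = 0.817), higher in 2 of 2 pairs, at 0.85 to 5.79 CPM. Macrophage markers summed to 5.51 and 4.16, 5.03 and 4.92, and 2.89 and 6.76 CPM there. Free RNA formed 0.518% and 0.471%, 1.01% and 0.973%, and 0.552% and 0.859% of the T cell-like UMIs. The level of Cd63 was 1.8 and 1.21, 5.79 and 3.69, and 0.85 and 3.84 CPM. Both were highest in the day 3 Cre-negative library. Cd63 was lowest in the day 7 Cre-negative library, where free RNA was above both vehicle values. The part of free RNA in the Cd63 difference was not tested. With free RNA subtracted the day 3 difference was 1.17 for Cd63 (adjusted p = 0.953) and 1.07 for Lgmn. T cell-like day 3 calls by edgeR numbered 0 of 39 lysosome genes, beside 0 of 12527 genes overall (0%), and by DESeq2 0, while an unadjusted p under 0.05 was found for 4 of the 39 and 5.76% of all genes. T cell-like day 3 medians of the log2 difference were 0.04 over the 39 and 0.00 over all genes, with groups apart upward for 11 of 39 (18.7% of genes) and downward for 7 (11.5%). At day 7 Ctsl had a log2 difference of 0.36 (SE 0.11, adjusted p = 0.991), higher in 2 of 2 pairs, and Atp6v0c had a log2 difference of 0.19 (SE 0.09, adjusted p = 0.991), higher in 2 of 2 pairs. The hexosaminidase subunit Hexa was at 22.1 and 17.5, 24.7 and 22.5, and 22.5 and 21.9 CPM, a log2 difference of 0.20 (SE 0.12, adjusted p = 0.991), higher in 2 of 2 pairs. Tfeb had a log2 difference of -0.30 (SE 0.19, adjusted p = 0.991), lower in 2 of 2 pairs. T cell-like day 7 calls by edgeR numbered 0 of 39 lysosome genes, beside 0 of 12527 genes overall (0%), and by DESeq2 0, while an unadjusted p under 0.05 was found for 1 of the 39 and 2.41% of all genes. T cell-like day 7 medians of the log2 difference were 0.11 over the 39 and 0.00 over all genes, with groups apart upward for 6 of 39 (10.3% of genes) and downward for 3 (13.8%).

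By label in T cell-like cells, Atp6v0d1 had a log2 difference of 0.34 (SE 0.10, adjusted p = 0.234), higher in 3 of 3 pairs. Npc2 had a log2 difference of -0.22 (SE 0.08, adjusted p = 0.273), lower in 3 of 3 pairs, and Lamp1 had a log2 difference of -0.25 (SE 0.09, adjusted p = 0.28), lower in 2 of 3 pairs. The subunit Atp6v1h was at 43.8 and 63.8, 53.6 and 62.4, and 42.4 and 49.1 CPM, a log2 difference of 0.25 (SE 0.10, adjusted p = 0.306), higher in 3 of 3 pairs. In the CD31 libraries, where the label was not tested in these classes, Atp6v0d1 was higher in 2 of 3 pairs in T cell-like cells (45.7 and 46.6, 38.1 and 50.1, and 49.97 and 40.6 CPM) and in 2 of 3 in dendritic-like cells. T cell-like Cre-positive calls by edgeR numbered 0 of 39 lysosome genes, beside 6 of 12157 genes overall (0.0494%), and by DESeq2 0 of the 3 it gave an adjusted p, while an unadjusted p under 0.05 was found for 5 of the 39 and 15.2% of all genes. T cell-like Cre-positive medians of the log2 difference were -0.03 over the 39 and 0.00 over all genes, with groups apart upward for 3 of 39 (14.4% of genes) and downward for 1 (6.13%). In the CD45 libraries these cells had medians of 4706.5 and 6088, 4569.5 and 6729, and 4155 and 5356 UMIs a cell. Depth was higher in the Cre-positive library of each pair, and its part was not tested.

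In macrophage-like cells, summed over both fractions after the cells were seen to be few, Gla had the smallest p at day 3. The X-linked Gla was at 16.4 and 16.8, 29.7 and 62.5, and 7.1 and 15.9 CPM, a log2 difference of 1.45 (SE 0.40, adjusted p = 0.196), higher in 2 of 2 pairs. Atp6v0c had a log2 difference of 0.63 (SE 0.28, adjusted p = 0.514), higher in 2 of 2 pairs. The peptidase Tpp1 was at 277 and 288, 139.7 and 214, and 309 and 274 CPM, a log2 difference of -0.58 (SE 0.26, adjusted p = 0.535), lower in 2 of 2 pairs. The thioesterase Ppt1 was at 173 and 179, 181 and 307, and 174 and 199.9 CPM, a log2 difference of 0.53 (SE 0.26, adjusted p = 0.572), higher in 2 of 2 pairs. Markers of other cells also differed in these cells. From vehicle to day 3, the blood endothelial list went from 653 and 429 to 416 and 365 CPM in the CD31 libraries and from 704 and 364 to 83.9 and 247 CPM in the CD45 libraries. In the same order, the lymphatic list went from 78.2 and 50.1 to 16.5 and 5.59 CPM and from 410 and 41 to 25.8 and 9.17 CPM. The pan-dendritic list went from 5562 and 14367 to 12929 and 5982 CPM and from 15860 and 7359 to 23612 and 10989 CPM. The B cell list went from 276 and 304 to 262 and 300.02 CPM and from 109.9 and 230.4 to 536 and 354 CPM, and Gla was highest in B cell-like cells. Free RNA was estimated at 5.15% and 3.95% of UMIs at vehicle and 1.69% and 0.949% at day 3 in the CD31 libraries. In the CD45 libraries it did not fall, at 0.569% and 0.248% at vehicle and 0.571% and 0.482% at day 3. With free RNA subtracted the difference was 1.43 for Gla, 0.63 for Atp6v0c, -0.60 for Tpp1 and 0.52 for Ppt1; the part of other cells in them was not tested. Without the day 7 Cre-negative pool, and likewise without the day 7 Cre-positive pool, the difference was 1.47 for Gla. By fraction, Gla went from 18.1 and 17.9 CPM at vehicle to 30.3 and 28 CPM at day 3 in the CD31 libraries. In the CD45 libraries it went from 9.99 and 15.4 to 29 and 119 CPM. The 119 CPM, in the Cre-positive library, came from 11 cells. With no filter on low counts edgeR called Gla (adjusted p = 0.0312), and the share of all genes called at that setting is not given here. Macrophage-like day 3 calls by edgeR numbered 0 of 39 lysosome genes, beside 22 of 7924 genes overall (0.278%), and by DESeq2 0, while an unadjusted p under 0.05 was found for 3 of the 39 and 9.15% of all genes. Macrophage-like day 3 medians of the log2 difference were -0.02 over the 39 and -0.01 over all genes, with groups apart upward for 5 of 39 (14.3% of genes) and downward for 12 (24.8%). At day 7 Laptm4a was at 352 and 341, 205 and 316, and 249 and 259 CPM, a log2 difference of -0.48 (SE 0.27, adjusted p = 1.00), lower in 2 of 2 pairs. The sphingomyelinase Smpd1 was at 19.6 and 25.3, 11.9 and 22, and 46.2 and 28.6 CPM, a log2 difference of 0.65 (SE 0.46, adjusted p = 1.00), higher in 2 of 2 pairs. The sialidase Neu1 was at 70.9 and 46.3, 52 and 60.2, and 81.7 and 74.6 CPM, a log2 difference of 0.38 (SE 0.32, adjusted p = 1.00), higher in 2 of 2 pairs. Tfe3 had a log2 difference of -0.40 (SE 0.34, adjusted p = 1.00), lower in 2 of 2 pairs. Macrophage-like day 7 calls by edgeR numbered 0 of 39 lysosome genes, beside 1 of 7924 genes overall (0.0126%), and by DESeq2 0, while an unadjusted p under 0.05 was found for 0 of the 39 and 3.94% of all genes. Macrophage-like day 7 medians of the log2 difference were -0.05 over the 39 and 0.01 over all genes, with groups apart upward for 8 of 39 (15.1% of genes) and downward for 2 (15.5%).

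By label in macrophage-like cells, Ctsd had a log2 difference of -0.54 (SE 0.22, adjusted p = 0.84), lower in 3 of 3 pairs. The Pf4 cluster, where Ctsd was higher, formed 41.2% and 32.4%, 66.7% and 37%, and 37.5% and 53.1% of the cells, less in the Cre-positive pool at vehicle and day 3 and more at day 7, and its part was not tested. Gla had a log2 difference of 0.70 (SE 0.37, adjusted p = 0.935), higher in 3 of 3 pairs, with values given above. The galactosidase Glb1 was at 90.6 and 90.5, 40.1 and 75.2, and 71 and 108 CPM, a log2 difference of 0.43 (SE 0.25, adjusted p = 0.949), higher in 2 of 3 pairs. Tfe3 had a log2 difference of 0.43 (SE 0.28, adjusted p = 0.964), higher in 3 of 3 pairs. Macrophage-like Cre-positive calls by edgeR numbered 0 of 39 lysosome genes, beside 11 of 7331 genes overall (0.15%), and by DESeq2 0, while an unadjusted p under 0.05 was found for 1 of the 39 and 5.32% of all genes. Macrophage-like Cre-positive medians of the log2 difference were 0.06 over the 39 and -0.01 over all genes, with groups apart upward for 0 of 39 (5.78% of genes) and downward for 0 (3.46%).

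Whether a treatment difference itself differed between classes was tested as an interaction, between dendritic-like and macrophage-like cells and between lymphatic and blood endothelial-like cells. In the first pair both classes were summed over both fractions, so its dendritic-like counts are not those of the CD45 fits above. Its macrophage-like counts at day 3 include the Gla value of 11 CD45 cells given above. With edgeR 0 of 39 genes passed in each of the 4 tests, against 0.155% and 0% of genes at day 3 and day 7 in the first pair and 0.013% and 0% in the second. An unadjusted p under 0.05 was found for 3 and 1 genes in the first pair (7.65% and 4.41% of all genes) and 0 and 0 in the second (5.17% and 2.07%); DESeq2 was not run on these. The smallest p was that of Gla at day 3, at -1.49 on the log2 scale for dendritic-like minus macrophage-like cells (SE 0.45, adjusted p = 0.305). For Ppt1 the interaction was -0.99 (SE 0.30, adjusted p = 0.305). Of 58 further lysosome genes, such as the pump subunits Atp6v0b and Atp6v1e1, 53 to 55 were tested in each class and comparison, and edgeR called 0 in any. Their median log2 difference lay between -0.08 and 0.06 over the 18 comparisons, that of the 39 between -0.05 and 0.11, and that of all genes between -0.02 and 0.01. An unadjusted p under 0.05 was found for 0 to 12 of them per comparison, the 12 in blood endothelial-like cells at day 3, where 21.3% of all genes had one.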

How the data were processed

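RNA of lymph node cells was measured in 12 droplet 3′ libraries. The authors deposited raw UMI counts per gene and barcode, with every barcode listed; the submitters' processing notes name Cell Ranger 7.0.1 and mm10, while the file headers name Cell Ranger 4. Cells were kept at 1000 UMIs, 500 genes and at most 10% mitochondrial UMIs, and the barcodes with the highest doublet scores were removed at 0.8% per 1000 barcodes. Cells were clustered (scanpy 1.11.5, 2000 variable genes without lysosome, Atg12 and sex genes, 30 components, resolution 1.0) and clusters were named from marker genes. Free RNA was taken from barcodes of 1 to 20 UMIs. Counts were summed per class and library where it held at least 20 cells and tested with edgeR 4.0.16 (R 4.3.3), by quasi-likelihood with additive terms for treatment and label, TMM scaling and a filter on low counts. P-values were adjusted by Benjamini-Hochberg over all genes, and adjusted values under 0.05 are called. Each SE is the size of the log2 difference divided by the square root of its F statistic, not an observed spread.

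The test script was checked on simulated data. Alternatives were DESeq2 1.42.0, no filter, 2000 UMIs, doublets kept, free RNA subtracted, mature migratory or HEV-like clusters left out, clusters led by markers of another list left out (chosen after seeing the data), and each library left out. The red fluorescent protein row (mRFP), listed in 4 CD31 libraries, those labelled Cre-positive and the day 7 Cre-negative one, was left out. The members and gene lists were chosen with earlier results of these data known. Library values are given for the 4 members with the smallest p in each comparison and for Tfeb, Tfe3, Lamp1, Lamp2, Cd68, Cd63, Ctsb, Ctsd, Ctsl, Ctss, Lgmn, Mcoln1, Grn, Npc2, Atp6v0c and Atp6v0d1, and by range where the mean was under 5 CPM. The summing of macrophage-like cells over both fractions, that of dendritic-like cells for the interaction, and the pattern over 5 classes were chosen after seeing the data. Poisson intervals cover counting error only.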

Additional observations from a re-analysis of the deposited data

How the results depend on the processing

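Of 221 recomputed counts of lysosome genes called, 208 stayed at 0. With no filter on low counts 1 gene was called in dendritic-like cells at day 3 and 1 by label, 2 in B cell-like cells at day 3 and 1 at day 7, 1 in blood endothelial-like cells at day 3 and 1 in macrophage-like cells at day 3. That setting also called 321 genes overall in dendritic-like cells at day 3, where the filtered test called 0, and the cause was not tested. DESeq2 called 1 in blood endothelial-like cells at day 3, with 420 genes overall. Leaving out each library gave 0 to 2 at day 3 and 0 to 1 at day 7 in B cell-like cells, 0 to 2 at day 3 in blood endothelial-like cells and 0 to 1 at day 3 in macrophage-like cells; each call came without a day 7 library, and the cause was not tested. Where that leaves 1 library at day 7, it is assumed to vary like the other groups. Elsewhere these counts stayed at 0. Apart from the overall counts given here, the number of all genes called at these settings is not given. The calls at those settings therefore stand without a background share. All 62 recomputed counts of genes between classes stayed within 1.5 times. Of 843 values for single genes, 824 kept direction and side of the threshold, 15 passed it and 4 changed sign. The last were Atp6v1h in dendritic-like cells at day 7 without migratory clusters (0.0433, from -0.34), Ctss in blood endothelial-like cells by label without HEV-like clusters (0.0945, from -0.29), Ctsc in lymphatic endothelial-like cells at day 7 with free RNA subtracted (0.0347, from -0.51) and Gusb there when 1 library was left out (-0.0700 to 0.473, from 0.20, the lowest without the day 7 Cre-positive library).

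No paired analysis was possible because the labels carry no replicate numbers to serve as a block; each combination of fraction, treatment and label is 1 library, and the pairs counted are libraries that share a treatment or a label, both of which are terms of the fit. The fits rest on 2 residual degrees of freedom. Macrophage-like cells of the CD45 libraries were not tested alone, since 3 of those libraries held fewer than 20 such cells, and genes under 5 CPM rest on few UMIs. Low values in macrophage-like cells, such as those of Gla, rest on few UMIs as well.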
